A study of Bos grunniens and Bos taurus with 11 samples.

Results

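Lung RNA of yaks living at 3400 m (T1) was compared with lung RNA of yaks living at 4200 m (T2). The comparison rests on 6 of the 11 libraries of the study, 3 in each group, and on the 12897 of 17267 listed genes that reached 1 fragment per kilobase of gene and per 1000000 counted fragments (FPKM) in at least 2 of these 6 libraries. The study asked how lungs of yaks, the bovine native to the Tibetan Plateau, differ in RNA with altitude, and also holds 3 yaks from 5000 m (T3) and 2 Zaosheng cattle from 1500 m (CON), which serve here only to show where a value of the 6 libraries lies. All animals were adult males of breeding age, with 1 library each. The T1 yaks (MQlg01, MQlg02 and MQlg03, replicates 1 to 3) came from Maqu County. The T2 yaks came from 3 other counties, which the initials of the library names match 1 to 1: Linzhou for LZlg01 (replicate 1), Bange for BGlg02 (replicate 2) and Dangxiong for DXlg03 (replicate 3). Thus altitude, county and any herd that went with the county cannot be told apart. The labels give lung as the tissue of every library, whereas their extraction text speaks of retinas.

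The mammalian lung exchanges gas across a thin layer of alveolar epithelium and capillary endothelium, and it holds airway, vascular and immune cells besides. When oxygen is scarce, hypoxia-inducible factors turn on genes of glycolysis, vessel growth and red cell production, and lung arteries constrict, a response that is blunted in yaks. These genes carry no name in the tables: 8451 of the listed genes have a numeric identifier and no name, and 8816 are new genes of the authors' transcript assembly, of which 390 carry a name taken over from a known gene family. Of 16 lists of cell type markers, 2 had a member among the names. The tissue label could therefore not be checked against alveolar, endothelial or airway markers. Neither the hypoxia genes nor those of vascular tone could be read by name.

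Between 33139808 and 48068260 fragments per library were counted on genes, so that 3 fragments on a gene of 1 kb corresponded to an FPKM of 0.0624 to 0.0905. The number of genes with an FPKM of at least 1 was 11581, 11267 and 12074 in T1 and 11996, 11114 and 11170 in T2. The 10 genes with most fragments took 17.5%, 23.0% and 19.1% of all fragments in T1, and 30.8%, 23.2% and 25.7% in T2. The share of the new genes lay between 11.7% and 15.6% in 5 libraries and reached 30.9% in LZlg01. A single new gene, NewGene.4333, took 18.3% of all fragments in LZlg01 and 3.35% to 5.28% in the other 5 libraries. The models named after genes of oxidative phosphorylation, most of them mitochondrial, took 1.14%, 0.836% and 0.232% of all fragments in T1 and 2.63% (LZlg01), 0.314% and 1.24% in T2. Their part in the differences of LZlg01 from the other libraries was not tested.

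LZlg01 stood apart from the other 5 libraries. Its correlation with them across the tested genes, on the log2(FPKM + 1) scale, ran from 0.861 to 0.897, while every other pair of libraries, within or between altitudes, reached 0.930 to 0.951. The first principal component held 39.5% of the variance and set LZlg01 (75.8) far from BGlg02 (-9.96) and DXlg03 (-5.34), which lay next to the T1 libraries (-24.6 to -16.9). LZlg01 lay over 1 log2 unit above both other T2 libraries in 859 genes (6.66% of those tested) and below both in 407 (3.16%). For each of the other 5 libraries the corresponding counts were 73 to 265 genes above and 189 to 277 below the other 2 of their group. Against all other 5 libraries at once, LZlg01 was over 1 log2 unit higher in 500 genes and lower in 225, whereas no other library exceeded 54 genes in either direction. In 348 and 62 genes it lay over 1 log2 unit above and below all 10 other libraries of the series, cattle included.

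**Figure D1:**
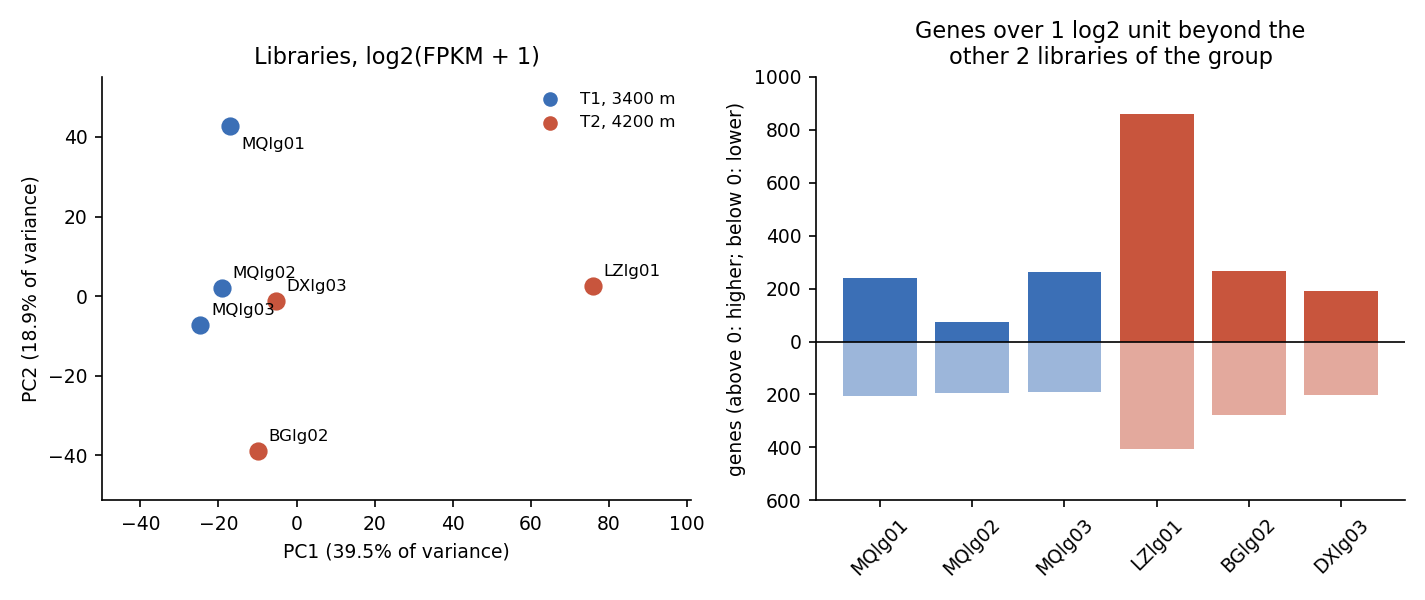
Left, the 6 libraries on the first 2 principal components of log2(FPKM + 1), blue for T1 and red for T2. Right, for each library, the number of tested genes in which it lay over 1 log2 unit above (dark bars) or below (pale bars) both other libraries of its group; LZlg01 has 859 and 407 such genes, the other libraries at most 265 and 277.

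BCL2L1, a mitochondrial ND2 model and CXCL8 were the named genes in which LZlg01 lay farthest above the other T2 libraries. The ND2 model (NewGene.1) had an FPKM of 1556 in LZlg01 and of 74.4 and 15.7 in the other T2 yaks, but it also reached 1024 in MQlg01, with 197 and 30.4 in the other T1 yaks. It divided its fragments unevenly with an ND5 model, NewGene.2. Read together, the 2 models held 25576 reads per 1000000 in LZlg01, 2614 in BGlg02 and 11810 in DXlg03. In T1 they held 10703, 7343 and 1800. LZlg01 thus stayed the highest of the 6 libraries, but much nearer to DXlg03. CXCL8 (NewGene.8896), which encodes interleukin 8, the chemokine that draws neutrophils into inflamed tissue, had an FPKM of 75.5 in LZlg01, of 0.574 and 2.91 in the other T2 yaks and of 0.751, 0.168 and 0.146 in T1. BCL2L1 (NewGene.7452), which encodes the anti-apoptotic protein Bcl-xL, had 63.1 in LZlg01 against 0.33 and 0.187 in T2 and 2.02, 0.215 and 0.312 in T1. For both genes LZlg01 was higher than all 10 other libraries of the series, of which the highest were cattle libraries with 6.91 for CXCL8 and 7.04 for BCL2L1. The 7160 fragments on CXCL8 and 6535 on BCL2L1 in LZlg01 put these values far above counting error. CXCL8 was 1 of 15 genes on the list of neutrophil markers, and the other 14 could not be read by name, so that more neutrophils and more CXCL8 RNA per cell cannot be told apart. On the list of smooth muscle and pericyte markers, the proteoglycan CSPG4 was found as 2 models with overlapping groups. NewGene.1332 had 3.74, 4.5 and 3.74 in T1 and 3.13, 4.37 and 2.52 in T2, and NewGene.1330 had 2.47, 2.59 and 2.73 against 2.16, 3.16 and 1.40, with log2 differences of -0.22 and -0.18. The V-type proton pump subunit a (ATPeV0A, NewGene.16019) had 12.1 in LZlg01 against 1.28 to 3.55 in the other 5 libraries.

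Genes without a name showed larger distances. The gene 102272371 had an FPKM of 1456 in LZlg01, of 0.092 and 0.575 in the other T2 yaks and of 11.7, 3.77 and 0.485 in T1. The gene 102268427 had 415 in LZlg01, 0 and 0.598 in BGlg02 and DXlg03, and 20.0, 20.9 and 0.107 in T1. In both genes LZlg01 was the highest of all 11 libraries, and the other 2 T2 libraries lay below or near the lower end of the T1 range.

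The 2 genes with most fragments in the 6 libraries also went different ways in LZlg01. The gene 102266368, 575 bases long, took 5.01%, 8.11% and 6.72% of all fragments in T1 and 8.27% and 8.85% in BGlg02 and DXlg03, but 0.61% in LZlg01, a 13.6-fold lower FPKM than that of the next T2 library. NewGene.4333, 476 bases long, took 3.35%, 4.26% and 3.65% in T1, 4.46% and 5.28% in BGlg02 and DXlg03, and 18.3% in LZlg01. Of the 413 tested genes whose FPKM averaged 100 or more, LZlg01 lay over 1 log2 unit below the other T2 libraries in 65 (15.7%) and above them in 17, and of the 4502 genes with a mean between 10 and 100 it lay below in 174 (3.86%) and above in 193. Among named genes, phospholipase C epsilon (PLCE, NewGene.7425) was low in LZlg01, with 3.65 against 16.2 and 17.5 in T2 and 13.0 to 16.5 in T1. NewGene.10012, named after the TAS2R family of taste receptors, had 0.949 in LZlg01 against 4.93 to 5.90 in the other 5 libraries. NewGene.122, without a name, had no fragment in LZlg01 and 9.18 to 15.8 in the other 5 libraries.

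**Figure D2:**
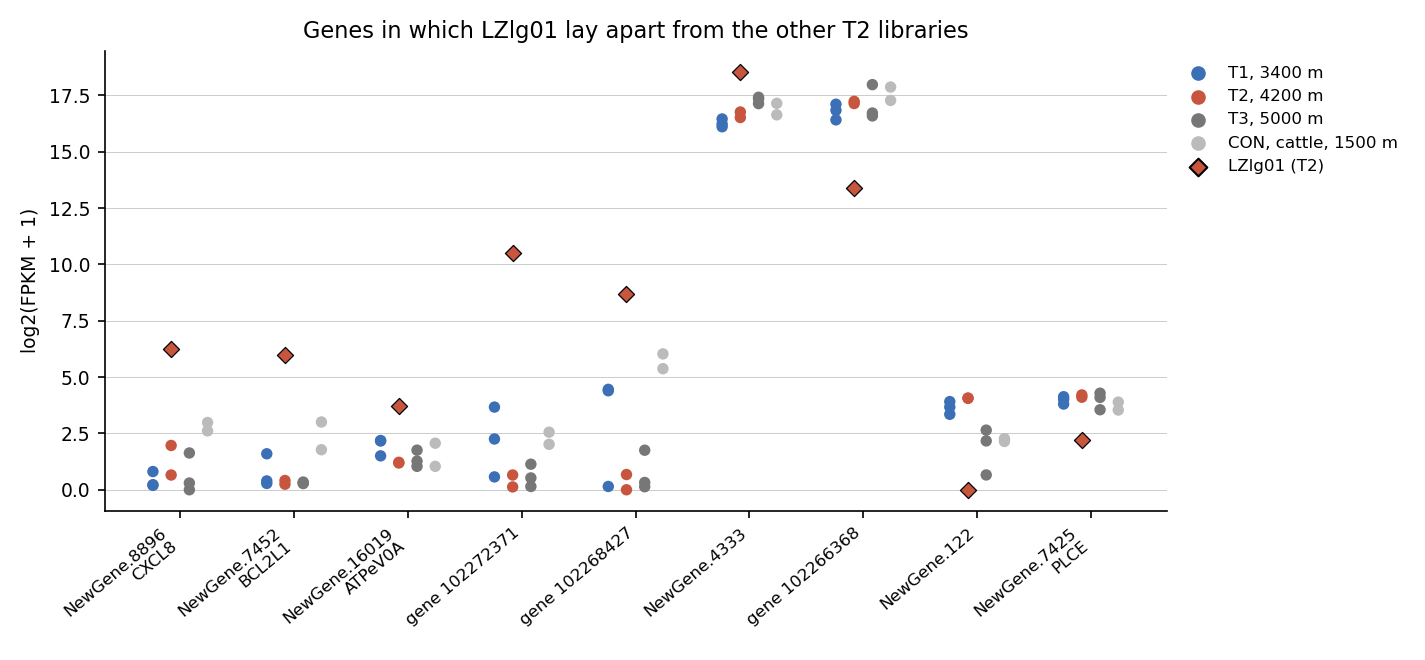
Values of 9 genes in which LZlg01 (red diamonds) lay apart from the other T2 libraries, as log2(FPKM + 1) in each of the 11 libraries by group. CXCL8, BCL2L1 and the genes 102272371 and 102268427 were higher in LZlg01 than in every other library, and the gene 102266368 was lower.

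One gene passed a Benjamini-Hochberg adjusted p of 0.05 together with a 2-fold difference in the comparison of T1 with T2 by limma on log2(FPKM + 1), that is 0.00775% of the genes tested. It was the gene 102268061, 1156 bases long and unnamed, with an FPKM of 1.59, 3.53 and 4.36 at 3400 m and of 259, 380.5 and 399.7 at 4200 m. The means were 3.16 ± 1.42 (SD, n = 3) and 346 ± 76.5 (SD, n = 3), and the difference was 6.42 on the log2 scale with an SE of 0.31 and a limma adjusted p of 9.35e-05. Every T2 library, LZlg01 included, lay far above every T1 library, with at least 11459 fragments in T2 and at most 196 in T1. Without LZlg01 the log2 difference was 6.62, and with median-ratio scaling, which sets the typical gene of the libraries level, it was 6.52.

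The other groups of the study showed both states of this gene at 1 altitude. At 5000 m it had an FPKM of 384 and 328 in 2 yaks and of 0.904 in the third, and the 2 cattle from 1500 m had 0.111 and 301. In all, 6 of the 11 libraries lay between 259 and 399.7 and 5 at or below 4.36, with none in between. When the spread within T3 and CON entered the fit of all 11 libraries, the difference of 6.42 had a limma adjusted p of 0.563, and in the fit of the 9 yak libraries one of 0.448. In the fit of all 11 libraries no gene passed the adjusted threshold by limma. In the same fit 102 genes were higher and 251 lower in T2 by at least 2-fold with a p under 0.05 before adjustment.

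Without LZlg01 a second gene passed, the unnamed gene 102270013, but with median-ratio scaling and without LZlg01 only 102268061 did. Its FPKM was 24, 26.1 and 24.3 in T1 and 12.3 (LZlg01), 3.27 and 5.10 in T2, a log2 difference of -1.88 with an SE of 0.38 and a limma adjusted p of 0.377 in all 6 libraries, and of -2.34 with an adjusted p of 0.0404 without LZlg01. The groups did not overlap in either case. Across all 11 libraries, 102270013 was low wherever 102268061 was high, with 2.97 and 4.79 against 19.6 at 5000 m and 20.8 against 6.80 in the cattle. Of the 12897 genes, 25 were split in this opposite way and 4, 102268061 included, in the same way, and of the 25 the gap was widest for 102270013. This pattern was counted after the values were seen. How many genes would follow such a split of the libraries without any relation to 102268061 was not tested.

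**Figure D3:**
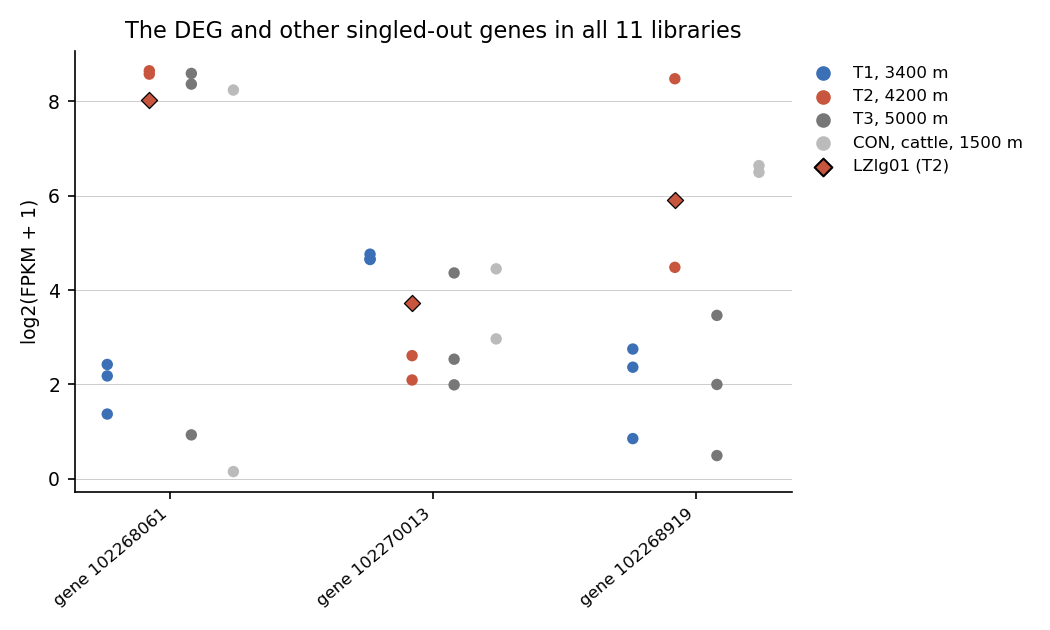
The gene 102268061 (left), which passed the adjusted threshold between T1 and T2, and the genes 102270013 and 102268919 in all 11 libraries, as log2(FPKM + 1). For 102268061 the T1 and T2 libraries are far apart, while T3 and CON each hold both a high and a low library.

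Below the adjusted threshold, differences between the altitudes pointed more often to lower values at 4200 m. Of the tested genes, 902 (6.99%) had an unadjusted limma p under 0.05, where 645 would be reached if no gene differed. Genes that also differed by at least 2-fold are called nominally higher or lower here. By this rule 89 genes (0.690%) were higher in T2 and 251 (1.95%) lower, so that 73.8% of these differences were toward lower values. The T1 and T2 libraries did not overlap in 454 genes higher (3.52%) and 1300 genes lower (10.1%) in T2. With 3 libraries in each group, many genes would lack overlap even if no gene differed, and their number was not estimated. The median log2 difference over all tested genes was -0.081.

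This imbalance depended on the level at which the libraries were set against each other. With median-ratio scaling the median difference was 0.007, and 127 genes (0.985%) were nominally higher and 198 (1.54%) nominally lower, a share of 60.9% lower. The genes without overlap became nearly balanced, with 773 (5.99%) higher and 834 (6.47%) lower in T2. All 89 genes higher in T2 stayed among the 127, and 198 of the 251 lower ones remained. Without scaling, new genes made up 46.8% of the tested genes and 163 of the 251 lower ones (64.9%), but 40 of the 89 higher ones (44.9%). New genes shorter than 500 bases were lower in 107 of 3153 cases (3.39%), and genes with a numeric identifier in 88 of 6863 (1.28%).

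LZlg01 carried a large part of the genes higher at 4200 m. Of the 202 genes with a log2 difference of at least 1, whatever their p, 70 (34.7%) still had one without LZlg01 and 17 changed sign, whereas 211 of 309 (68.3%) remained among those with a difference of -1 or below and none changed sign. Of the 89 nominally higher genes, 35 were so again without LZlg01, fewer than the 45 to 69 that remained when any one of the other 5 libraries was left out. Among the 251 lower genes, 167 remained. Without LZlg01, 77 genes (0.597%) were nominally higher and 260 (2.02%) nominally lower in all. In all, 2382 of the tested genes (18.5%) had a difference of the opposite sign without LZlg01. Sign changes were not counted for the other 5 libraries, so this share cannot be called particular to LZlg01. Of the genes picked for the distance of LZlg01, those that changed sign included BCL2L1 (1.46, then -0.43), 102272371 (1.60, then -1.77), 102268427 (0.13, then -2.66), 102266368 (-0.87, then 0.40), NewGene.122 (-0.93, then 0.42) and PLCE (-0.47, then 0.17). Leaving out BGlg02 or DXlg03, so that LZlg01 was 1 of 2 libraries of its group, gave 256 and 226 higher genes with 360 and 373 lower ones.

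**Figure D4:**
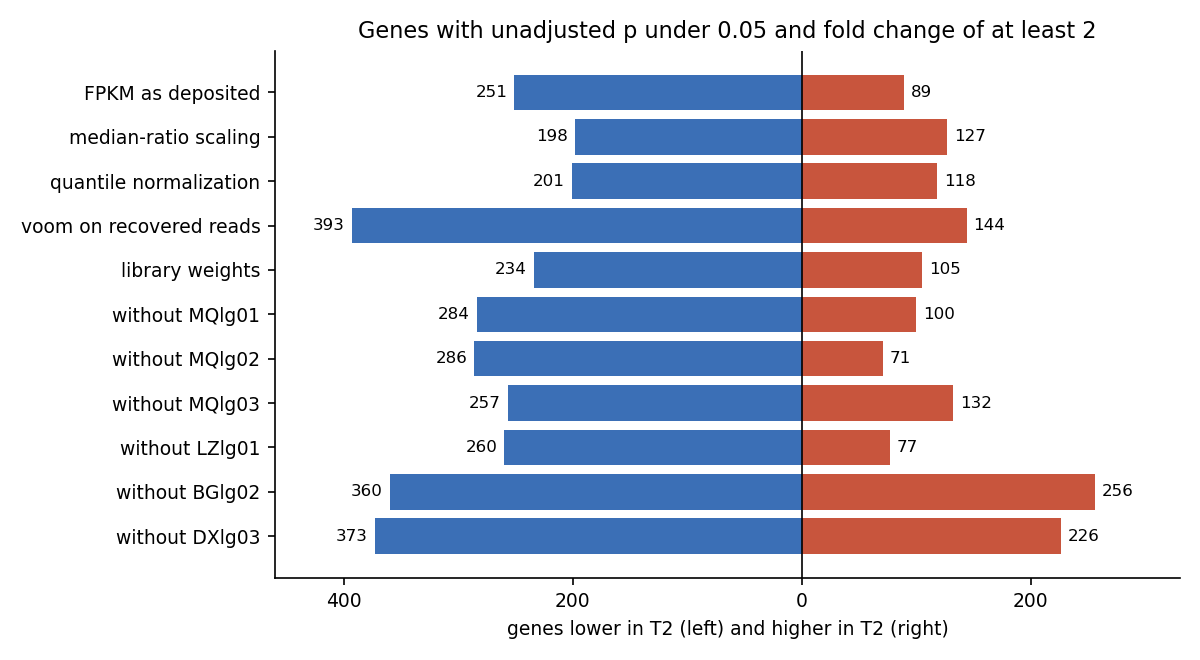
Number of genes lower (blue, to the left) and higher (red, to the right) in T2 by at least 2-fold with an unadjusted limma p under 0.05, for the FPKM as deposited, for 4 other ways of processing and without each library in turn. Lower genes outnumber higher ones in every row, by 251 to 89 as deposited and by 198 to 127 with median-ratio scaling.

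Of the 331 named genes tested, none passed the adjusted threshold, 7 had an unadjusted p under 0.05 with higher values in T2 and 17 with lower values, where 1.64% and 5.35% of all 12897 tested genes did, and 144 differences were positive and 187 negative. The T1 and T2 libraries did not overlap in 10 higher and 34 lower named genes, where 3.52% and 10.1% of all tested genes did not. Of these, 4 higher and 15 lower genes also had an unadjusted p under 0.05, as did 163 and 587 of all tested genes. The named genes thus lay close to the background in each count. The limma adjusted p of all of them was 0.377 or higher, so that each is given as a difference between these 6 animals.

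The 4 higher genes were DYNLL, HAUS3, RPS26 and a gene named after the TAS2R family. The dynein light chain DYNLL (NewGene.7951), a small subunit of the motor that carries cargo along microtubules, had an FPKM of 15.8, 24.1 and 20.1 in T1 and of 33.6, 42.1 and 42.4 in T2. Its log2 difference was 0.96 with an SE of 0.23 and a limma adjusted p of 0.469, and it was 1.06 both with scaling and without LZlg01. All 3 T2 yaks also lay above all 3 T3 yaks (15.6 to 28.5) and both cattle (13.8 and 14.1). HAUS3 (NewGene.5434), a subunit of the augmin complex that seeds microtubules in the spindle, had 0.187, 0.27 and 0.443 in T1 and 0.63 in LZlg01, 5.57 in BGlg02 and 4.67 in DXlg03. LZlg01 thus lay next to the T1 range, and the log2 difference of 1.60 (SE 0.51, limma adjusted p 0.630) became 2.24 without it. By voom on the recovered reads without LZlg01, a setting chosen after seeing the data, HAUS3 passed with a log2 difference of 4.19 and a limma adjusted p of 0.0104. It did not pass by voom with LZlg01 kept (limma adjusted p 0.698). Nor did it pass in the planned limma fits without LZlg01 (adjusted p 0.1585, and 0.1695 with scaling). The T3 yaks had 2.73, 0.0658 and 0.586 and the cattle 3.67 and 0.356, so that both groups held high and low values.

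RPS26 (NewGene.10366), a protein of the small ribosomal subunit, had an FPKM of 0.829, 0 and 0.126 in T1 and of 1.31, 1.17 and 1.31 in T2. These values stood on 0 to 8 and 10 to 13 fragments, and the gene model of 239 bases may share reads with other copies of this gene. One gene named after the bitter taste receptor family (TAS2R, NewGene.11245) had 2.21, 2.07 and 5.34 in T1 and 8.40, 6.57 and 6.47 in T2.

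Of the named genes with an unadjusted p under 0.05 and no overlap, CDKN2B had the largest difference on the log2(FPKM + 1) scale. By voom on the recovered reads HAUS3 differed more, by 3.19 against -3.04 for CDKN2B. CDKN2B encodes an inhibitor of the cyclin-dependent kinases that start the cell cycle. Its model NewGene.2163 had an FPKM of 10.3, 13.2 and 5.64 in T1 and of 3.15, 1.07 and 0.433 in T2, a log2 difference of -2.15 with an SE of 0.44 and a limma adjusted p of 0.377. A second model with the same name and the preceding identifier, NewGene.2162, went the other way, with 3.01, 0.766 and 6.95 in T1 and 3.07 (LZlg01), 17.9 and 19.7 in T2. Read together, the 2 models held 88.2, 101 and 69.2 reads per 1000000 in T1 and 35.5, 78.7 and 81.5 in T2, so that the groups overlapped. The division between the models overlapped as well, through LZlg01 and MQlg03: NewGene.2162 took 13.5%, 3.02% and 39.9% of these reads in T1 and 34.4% (LZlg01), 90.0% and 96.1% in T2. At 5000 m the share was 4.88%, 97.2% and 74.5%, again with both states at 1 altitude.

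SPI1, MXD and CTBP, which encode regulators of transcription, were 3 of the lower genes. SPI1 (NewGene.10605), which encodes PU.1, the factor that drives macrophages and other myeloid cells, had an FPKM of 2.06, 4.18 and 3.55 in T1 and of 0.512, 1.37 and 0.472 in T2, a log2 difference of -1.26 with an SE of 0.34 and a limma adjusted p of 0.559. The model spans 204 bases and held 17 to 41 fragments in T1 and 4 to 10 in T2. MXD (NewGene.14708), whose product pairs with MAX in place of MYC, had 15.4, 16 and 18 in T1 and 5.89, 6.53 and 12 in T2. The corepressor CTBP (NewGene.17921) had 8.25, 6.55 and 6.13 in T1 and 3.48, 2.60 and 4.61 in T2. All 3 kept a negative difference with scaling. They also kept it without any 1 library, which their choice for groups without overlap made certain.

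Of the 15 lower genes, the 12 with the largest differences are named here, among them 2 genes named after the TAS2R family. EXOSC6 (NewGene.14552), a subunit of the exosome that degrades RNA from its end, had an FPKM of 5.02, 4.07 and 10.2 in T1 and of 0.602, 0.970 and 2.01 in T2 (log2 difference -1.73, SE 0.39, limma adjusted p 0.438). PPP1R3F (NewGene.1783), a subunit that directs protein phosphatase 1 to glycogen, had 8.89, 5.98 and 6.11 in T1 and 2.62, 2.1 and 2.94 in T2. The 3 T2 yaks lay within a narrow band for this gene, well below the T1 yaks. RPN1 (NewGene.11681), which takes part in attaching sugars to new proteins, METT10D (NewGene.8442), a methyltransferase, and UTP25 (NewGene.4833), which acts in ribosome assembly, had log2 differences of -1.18, -1.13 and -0.80. EPB41 (NewGene.19123), the protein that ties spectrin to the red cell membrane, had 42.1, 42.1 and 51.7 in T1 and 15.4 (LZlg01), 41.4 and 27.0 in T2. Its difference of -0.78 became -0.42 without LZlg01.

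**Figure D5:**
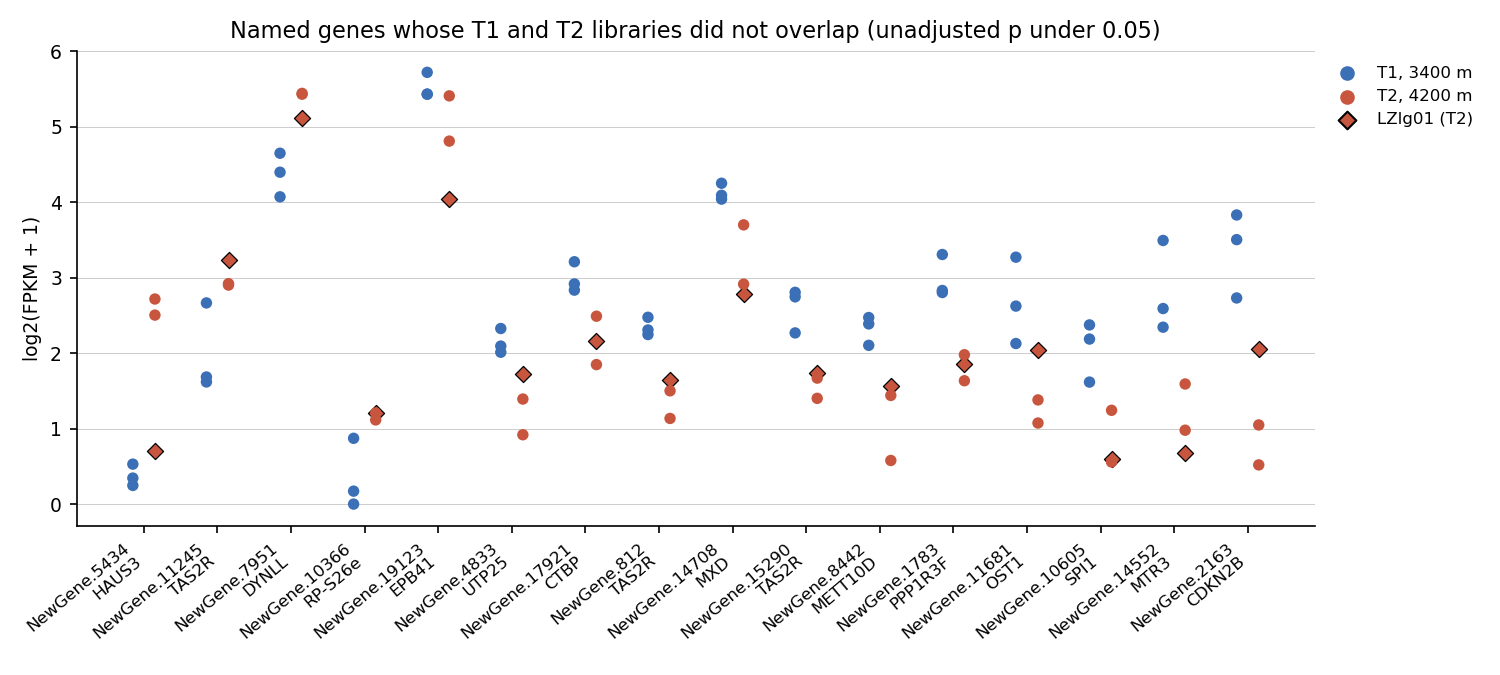
Named genes with an unadjusted limma p under 0.05 whose T1 (blue) and T2 (red) libraries did not overlap, as log2(FPKM + 1) in each of the 6 libraries. The 16 genes shown are the 4 higher in T2 and, of the 15 lower, the 12 with the largest differences. Diamonds mark LZlg01, which is the T2 library nearest to T1 for HAUS3 and CDKN2B and the farthest for EPB41 and EXOSC6.

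New genes named after the TAS2R family, G protein-coupled receptors that sense bitter compounds in taste buds and airway cells, were the largest group of one name, with 130 listed and 100 tested. The tested models had a median length of 4927 bases, and whether they encode such receptors was not tested. Of these, 1 was nominally higher and 2 were nominally lower in T2, where 0.690% and 1.95% of all tested genes were, and the groups did not overlap in 1 higher and 12 lower members, against 3.52% and 10.1% of all tested genes. Differences ran from -1.06 to 1.03 with a median of -0.11, which was -0.03 with scaling. The median FPKM of the members was 2.63, 2.64 and 3.48 in T1 and 2.67, 2.78 and 2.36 in T2, so that the groups overlapped. The 2 nominally lower members were NewGene.15290, with 5.70, 3.81 and 5.99 in T1 against 2.32, 1.64 and 2.18 in T2, and NewGene.13842, named after its values were seen, with 4.51, 7.59 and 8.86 against 2.47, 1.55 and 4.80. The groups overlapped for the second of them. NewGene.812, which was under 2-fold lower (log2 difference -0.92), had 3.95, 3.74 and 4.56 against 2.12, 1.20 and 1.83, with no overlap. Members of 1 name may share reads, and the values of single members are uncertain to that extent.

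Among 15 tested genes named as ribosomal proteins, differences ran from -0.53 to 2.46 with a median of -0.01, 7 positive and 8 negative. The extreme belonged to a model named RPSA (NewGene.3680), chosen after its values were seen, with no fragment in any T1 yak, an FPKM of 14.8 in LZlg01, 0 in BGlg02 and 9.48 in DXlg03, and, outside these groups, 12.5 in 1 yak at 5000 m and 0 in the other 4 libraries. Presence and absence thus varied within T2 and within T3.

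The tables name 7 tested genes of oxidative phosphorylation, the chain in mitochondria that uses oxygen to make ATP. Of these, 5 had positive and 2 negative differences, with a median of 0.22 against -0.08 over all tested genes, and none was nominally higher or lower. The median was 0.11 without LZlg01, against -0.09 over all tested genes. COX6C (NewGene.10045), a subunit of cytochrome c oxidase, had an FPKM of 2.53, 2.12 and 1.13 in T1 and of 2.31 (LZlg01), 5.31 and 4.58 in T2, a log2 difference of 0.77 with an SE of 0.35 and a limma adjusted p of 0.715. The groups overlapped through LZlg01, and the difference was 1.05 without it. ATP5A1 (NewGene.1907), a subunit of ATP synthase, had 3.73, 2.62 and 7.11 in T1 and 6.05, 3.62 and 5.77 in T2, and a short ND2 model (NewGene.7293) had 6.75, 5.41 and 15.6 against 17.3, 6.68 and 5.38. Both overlapped, with log2 differences of 0.22 and 0.04. Of the models named after the mitochondrial gene ND5, a subunit of complex I, NewGene.12170 and NewGene.12171 are each 1907 bases long and held identical numbers of fragments in 9 of the 11 libraries. NewGene.12170 had 170, 267 and 0 in T1 and 402 (LZlg01), 136 and 153 in T2, and NewGene.12171 had 170, 267 and 268 in T1 and 0 (LZlg01), 136 and 153 in T2. Their log2 differences were 2.51 and -3.06, opposite in sign, with each resting on a 0 in 1 library.

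Such twin models were counted across the tables, after their values were seen. In 9 pairs of genes, 8 of them of 2 new genes, both members held the same number of at least 200 fragments in 3 or more libraries, and in 8 of the 9 pairs 1 member was at 0 in some library while the other was not. The long models NewGene.1 and NewGene.2, named ND2 and ND5, also divided their fragments unevenly, NewGene.1 taking 100%, 28.0% and 17.6% of the sum in T1 and 63.6%, 29.7% and 1.39% in T2. Among the tested genes, 13 had an FPKM of at least 10 in 1 T1 library and no fragment in another, 9 of them new genes, and in T2 this held for 23 genes, 18 of them new. The values of single new genes that switch between 0 and a high level are therefore uncertain.

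The genes of mobile elements formed the largest group by Gene Ontology (GO) term. Of 596 tested new genes annotated with RNA-directed DNA polymerase activity, the reverse transcriptase of retroelements, 3 were nominally higher and 2 nominally lower in T2, against 0.690% and 1.95% of all tested genes, and 29 and 31 had groups without overlap, against 3.52% and 10.1%. The median difference was 0.08, 0.15 with scaling and -0.01 without LZlg01, and LZlg01 lay over 1 log2 unit above the other T2 libraries in 37 of them (6.21%, against 6.66% of all tested genes) and below in 7. The median FPKM was 1.77, 1.90 and 2.67 in T1 and 2.59, 2.25 and 1.79 in T2, with overlap.

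Few genes carried an immune annotation. Of 4 tested genes annotated with immune response, CXCL8 and the unnamed NewGene.13519 lay over 1 log2 unit higher in LZlg01 than in the other T2 yaks, as did 6.66% of all tested genes. The fourth member, a TRIM family gene (NewGene.10467), had an FPKM of 14.7, 9.56 and 4.91 in T1 and of 2.62, 6.52 and 5.63 in T2, with overlap. The unnamed NewGene.6334, which also carries the annotation of a serine-type endopeptidase and was singled out after its values were seen, had an FPKM of 0.879, 0 and 0 in T1 and of 4.58, 2.56 and 22.5 in T2, a log2 difference of 2.65 with an SE of 0.64 and a limma adjusted p of 0.470. The groups did not overlap, although the 3 yaks at 5000 m (0 to 0.626) lay in the T1 range and the cattle had 16.6 and 17.9. Midkine (MDK, NewGene.5571), a growth factor of developing and injured tissue that was also chosen after its values were seen, had 2.46, 6.34 and 1.91 in T1 and 8.74, 11.8 and 5.39 in T2, with overlap.

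Besides 102268061, whose values were close together within each group, the unnamed genes taken by the same rule (the largest differences with no overlap) varied more widely. The gene 102268919 had an FPKM of 0.803, 4.15 and 5.72 in T1 and of 59.0, 355 and 21.3 in T2, a log2 difference of 4.30 with an SE of 0.89 and a limma adjusted p of 0.377. NewGene.14488 had 8765, 5.28 and 4641 in T1 and 0.0538, 2.70 and 2.28 in T2, so that MQlg02 lay close to the T2 yaks and far from the other T1 yaks. NewGene.5297 had 112, 21.5 and 40.7 in T1 and 1.96, 0.419 and 4.70 in T2, a log2 difference of -4.04 with an SE of 0.63 and a limma adjusted p of 0.179.

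The precision of 3 animals against 3 limited the size of difference that could be seen. The 95% interval of a log2 difference, for a single gene and without adjustment, reached 0.72 to either side in the median gene. It was 0.83 for genes with a mean FPKM under 2, 0.75 for those between 2 and 10, 0.57 for those between 10 and 100 and 0.75 for those of 100 or more. The adjusted threshold asked for more. CDKN2B (NewGene.2163), with a difference of -2.15 and an interval of 1.01 to either side, did not pass it.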

How the data were processed

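Lung RNA of 6 yaks, 3 from 3400 m and 3 from 4200 m, was analysed. The authors used HISAT2 for alignment (yak assembly BosGru_v2.0) and StringTie for transcript assembly, and deposited 1 table per library with gene lengths and FPKM values, scaled to the fragments counted on the listed genes. The labels' notes list TopHat2 2.1.1 and Bowtie2 2.2.8, and neither source states how shared or overlapping reads were counted or whether strand was used. FPKM multiplied by length gave whole fragments for 100% of values within 0.01, and reads recovered in this way entered voom as an alternative, which called 1 gene. Identifiers were printed as given, since 0 matched the 40772 genes of the reference table Bosgru_T2T1.0.

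Genes that reached 1 FPKM in 2 or more of the 6 libraries were fitted as log2(FPKM + 1) by group in R 4.3.3 with limma 3.58.1 (empirical Bayes with a trend, two-sided, Benjamini-Hochberg adjustment over all genes). A gene was called at an adjusted p under 0.05 when it also differed 2-fold or more. On this log2(FPKM + 1) scale, differences of low genes are understated. Animals were separate, and 1 library stood for each. Tables and figures were made in Python 3.11.15 with pandas 2.3.3, numpy 2.4.6 and matplotlib 3.10.9, and the fit was tested on simulated data.

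Named in the text were called genes, up to 12 named and 2 unnamed genes in each direction with an unadjusted p under 0.05 and no overlap, listed genes of pathways and cell types, and the genes in which LZlg01 lay farthest from the other T2 libraries. Other genes are marked as chosen after their values were seen. The members and lists were chosen with earlier results of these data known.

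Tried as well were quantile normalization, median-ratio scaling, a pseudocount of 0.1, no filter, a mean FPKM of 5 or more, a threshold of 1.5-fold, fits of 9 or 11 libraries, library weights, a replicate block, voom, and leaving out each library. Voom without LZlg01 and weights with scaling were added after seeing the data. Values for T3 and CON show context only.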

Additional observations from a re-analysis of the deposited data

How the results depend on the processing

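The adjusted call of 1 gene remained 1 under median-ratio scaling, quantile normalization, no filter, a mean FPKM of 5 or more, a threshold of 1.5-fold, library weights and voom, became 2 with a pseudocount of 0.1 (NewGene.18819 in addition, chosen after its values were seen, with 16.5, 6.28 and 6.38 in T1 and no fragment in T2, at least 33.0-fold lower against a floor of 3 fragments per library), and 0 with all 11 libraries (smallest limma adjusted p 0.127) or the 9 yak libraries (0.205). It ranged from 1 to 3 without each library in turn, the gene 102268061 being called each time, and was 3 by voom without LZlg01 (102270013 and HAUS3 in addition) and 1 with scaling without LZlg01. RPSA (NewGene.3680) was one of those called without BGlg02, and NewGene.14488 without MQlg02. The higher and lower counts of 89 and 251 were 155 and 404 with a pseudocount of 0.1, 38 and 83 with a mean FPKM of 5 or more, 144 and 393 by voom, and 203 and 626 with a threshold of 1.5-fold. The higher count was 139 with weights and scaling. Without each library they ran from 71 to 256 and from 257 to 373. The median difference of -0.081 was 0.0069 with scaling (with or without the block), -0.0073 with quantile normalization, -0.104 with a pseudocount of 0.1, -0.052 without the filter, -0.128 with a mean FPKM of 5 or more, -0.063 with library weights, -0.105 by voom, -0.098 by voom without LZlg01, 0.011 with weights and scaling, 0.011 with scaling without LZlg01, and -0.123 to -0.046 without each library. Genes without overlap numbered 773 higher and 834 lower with scaling, 179 and 720 with a mean FPKM of 5 or more. With a pseudocount of 0.1, libraries lay over 1 log2 unit from the others of their group in 1125, 912 and 1124 genes (T1) and 2158, 1338 and 1084 (T2), LZlg01 again the highest. Of the 27 fold changes followed over these settings, none changed sign. These leave out the genes chosen for the distance of LZlg01 apart from CXCL8 and HAUS3. Most of them were chosen for groups without overlap, where leaving out 1 library cannot change the sign. They therefore cannot be set against the 2382 of all tested genes (18.5%) that changed sign without LZlg01. The causes were not tested.

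Replicate numbers are shared by T1 and T2 only as numbers, since same-numbered libraries had correlations of 0.058, 0.034 and -0.015 of their deviations, none over 0.1, and not every library correlated best with its own number. With the replicate block 3 genes were called (NewGene.5297 and NewGene.18819 in addition), 150 higher and 283 lower genes were counted, and with block and scaling 1 gene was called, with 196 higher and 225 lower. Counts limit the low genes, such as SPI1 (NewGene.10605) with 4 to 10 fragments in T2.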
